A study of Rattus norvegicus with 4 samples.

Results

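The transcripts described here are 92 probe sets, for 90 genes, that had a higher signal on arrays of rat granulosa cells treated with an siRNA against Runx2 than on arrays of cells treated with a negative control siRNA. They were chosen from 31042 probe sets that are not array controls, of which 14102 had 1 gene symbol and a mean signal over the 4 arrays of at least 78.6, the 40th percentile. A member was higher with Runx2 siRNA by at least 0.7 in log2(signal + 16) between the arrays numbered 1 and again between the arrays numbered 2, and both Runx2 siRNA arrays lay above both control arrays. The choice used the values of the siRNA comparison itself, so those differences are given as a description and were not tested. In all 107 probe sets met these criteria, 0.759% of the 14102, and 15 of them, for 13 genes, were set aside by name. The same criteria turned round gave 193 lower probe sets, 1.37%.

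Granulosa cells surround the oocyte in the ovarian follicle and make its steroid hormones. Their source was 27-day-old immature Sprague Dawley females, primed for 48 h with the follicle-stimulating agent PMSG. One group received 20 nM Runx2 siRNA and the other 20 nM negative control siRNA, and cells of both groups then spent 48 h in 10 µM forskolin, an activator of adenylyl cyclase that increases cAMP. The medium was low in serum and held insulin, transferrin, selenium and gentamycin. Each group had 2 arrays, 2 separate cultures were made according to the design text, and that number limits the precision of every value.

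Runx2 is one of the Runx transcription factors, which bind DNA together with Cbfb at sites built around the letters TGTGGT. They raise transcription at some genes and, with Groucho corepressors, lower it at others. Runx2 is best known from bone formation, and in granulosa cells it is among the genes induced by the ovulatory surge of luteinizing hormone and by agents that raise cAMP. Of the transcripts described here, Fhl2 encodes a LIM domain cofactor that is known to bind Runx2 protein in bone cells.

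Over all 18625 probe sets above the signal limit, limma called 0 (0%) at an adjusted p under 0.05, and 2225 had an unadjusted p under 0.05. With the replicate number as a term in the fit it called 1512 (8.12%). The table named 0 probe sets for Runx2, so the extent of the knockdown was not analysed here and the groups rest on their labels. The second Runx2 siRNA array stood apart from the other arrays. Its spike-in signal was 1.71 times the control mean, where the others had 0.923 to 1.08. Its actin 3' to 5' ratio was also 1.71, where the others had 1.42 to 1.45. Each member also differed by at least 0.7 in the pair numbered 1, which does not hold that array. The criteria fixed this outcome in advance, so it does not show how much that array contributed. The signal limit and the demand that groups not overlap used that array too. Granulosa markers were measured at a summed signal of 69244 and 78888 with Runx2 siRNA and 55312 to 62800 with control siRNA, from 9 of 10 listed genes, 8 of them above the signal limit. These markers went both ways. Without overlap of the groups 3 were higher and 2 lower, where 27.8% and 19.6% of all 14102 probe sets were. Cyp19a1 was lower, at 856 and 470 with Runx2 siRNA against 2249 and 1185 with control siRNA. Fewer cells of a type and less RNA per cell cannot be told apart in such samples.

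Promoter sequences are shown first for Fhl2 and Ajuba, the 2 genes with a pair of member probe sets. They come from RefSeq on the GRCr8 build and run from 250 bases before to 50 bases after an annotated start, written 5′ to 3′ on the gene's strand. Capitals mark TGTGGT and TGCGGT (Runx type), GGAATG (TEAD type) and the CArG box (bound by SRF), on either strand. Fhl2 lies on the minus strand at chr9:52881091-52954540 and had 2 windows, one at the outer end of the gene at chr9:52954491-52954790 and one at a start inside the gene at chr9:52923277-52923576. Ajuba lies on the minus strand at chr15:31989796-32000042, with 1 window at chr15:31999993-32000292.
Fhl2 outer start: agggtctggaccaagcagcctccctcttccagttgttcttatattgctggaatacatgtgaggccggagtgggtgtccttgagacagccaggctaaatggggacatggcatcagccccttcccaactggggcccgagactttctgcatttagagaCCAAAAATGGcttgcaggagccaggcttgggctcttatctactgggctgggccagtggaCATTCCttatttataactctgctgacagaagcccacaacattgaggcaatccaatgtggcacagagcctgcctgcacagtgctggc
Fhl2 inner start: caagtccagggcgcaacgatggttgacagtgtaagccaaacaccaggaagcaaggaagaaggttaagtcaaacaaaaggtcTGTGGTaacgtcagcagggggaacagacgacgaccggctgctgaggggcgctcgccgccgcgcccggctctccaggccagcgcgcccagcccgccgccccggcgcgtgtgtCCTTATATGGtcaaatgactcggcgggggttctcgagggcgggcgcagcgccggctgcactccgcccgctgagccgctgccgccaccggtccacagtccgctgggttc
Ajuba: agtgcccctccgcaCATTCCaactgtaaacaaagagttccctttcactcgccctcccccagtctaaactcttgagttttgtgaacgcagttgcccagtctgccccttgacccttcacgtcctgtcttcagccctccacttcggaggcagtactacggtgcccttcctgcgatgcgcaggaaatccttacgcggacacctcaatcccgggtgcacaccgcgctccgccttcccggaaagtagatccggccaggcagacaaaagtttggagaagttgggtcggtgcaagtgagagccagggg

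The inner Fhl2 window held TGTGGT at position -169 and a CArG box at position -58, counted from the start site as 1 with no 0, and the outer window held a CArG box at -95. Ajuba's window held 1 match, the reverse complement of GGAATG at -236. A match is a description of letters and not a site of binding. The table held a window for 68 of the 90 genes, 78 windows in all. TGTGGT was in 13 of 78 member windows, 16.7%, against 17.3% of all 33469 promoter windows and 12.4% of the 9369 windows of genes measured here. TGCGGT was in 11.5% of member windows against 6.39% and 10%, and 19 genes held at least 1 of the 2.

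Of 7 other motifs, 3 had a share near that of the genes measured here. The shares of the other 4 differed more, but 3 of these rest on 0 to 2 member windows, too few to compare. CCAAT was in 38.5% of member windows against 37.8%, CACGTG (the E-box) in 10.3% against 9.54%, and GGAATG in 11.5% against 10.9%. TATAAA was in 12.8% against 6.6% of the measured genes and 14.2% of all windows. The cAMP response element TGACGTCA was in 1 window, 1.28%, against 3.2%, CAAGGTCA (the Nr5a1 type) in 0 against 0.929%, and the CArG box in 2, both of Fhl2, 2.56% against 1.49%. Motifs were searched on both strands.

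The stretches below give 40 bases around TGTGGT, in capitals on either strand, for the other members that held it and had the largest differences in their smaller pair. They show the flanking letters, which differed from gene to gene.
Chst10, chr9:48618423-48618462, minus strand: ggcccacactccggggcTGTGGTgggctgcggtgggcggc
Samd13, chr2:238200804-238200843, minus strand: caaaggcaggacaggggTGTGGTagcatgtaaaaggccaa
Kcnc4, chr2:197788608-197788647, minus strand: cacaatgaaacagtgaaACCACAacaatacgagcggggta
Tmcc2, chr13:46383990-46384029, minus strand: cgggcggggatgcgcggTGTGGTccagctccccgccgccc
Krt33b, chr10:85462166-85462205, minus strand: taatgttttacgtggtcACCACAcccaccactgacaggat
Cavin2, chr9:57806166-57806205, minus strand: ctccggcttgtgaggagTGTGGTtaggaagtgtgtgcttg

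The members were mostly dim. Their mean signal ran from 80.2 to 2757 with a median of 153, against a median of 559 over the 14102 probe sets, and 66.3% of members lay under 200 against 21%. With control siRNA 36 of the 92 had a mean under 78.6, and with Runx2 siRNA 0 had, so those 36 passed the limit through the group where they were high. Differences ran from 0.71 to 1.97 on the log2(signal + 16) scale, which understates the change of dim probe sets, with a median of 0.91. The median was 0.91 in pair 1 and 0.87 in pair 2, where all measured probe sets with 1 symbol had medians of 0.04 and 0.03. In 14 members both pairs differed at least 2-fold (1 in log2), and in 33 each Runx2 siRNA array lay at least 0.7 above each control array.

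**Figure D1:**
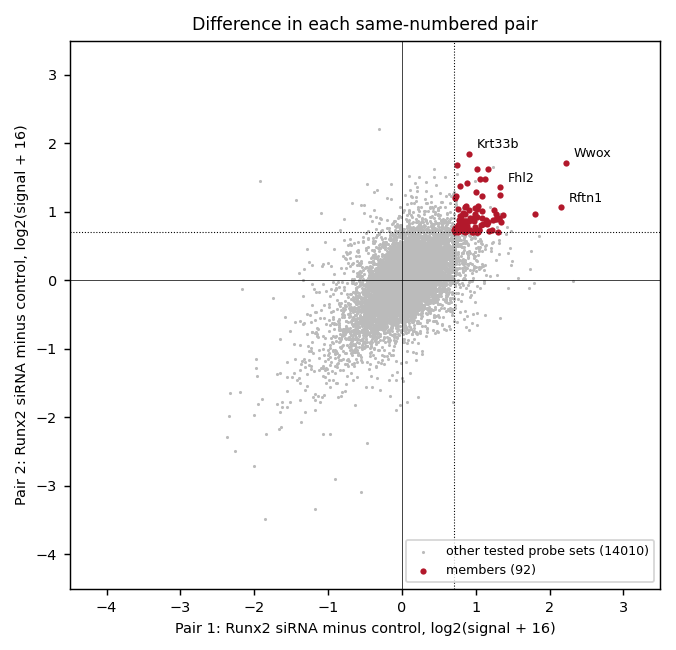
Difference between Runx2 siRNA and control siRNA in log2(signal + 16) for the arrays numbered 1 (x axis) and numbered 2 (y axis), with 1 point per probe set, members in red and dotted lines at 0.7. The 92 members fill the upper right corner, from the limit up to Wwox at 2.22 and 1.72.

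The probe sets nearest the limit show how little separates members from others. Just inside were Gprc5a (smaller pair 0.701), Kctd12 (0.703), Nkain1 (0.705) and Klf2 (0.706). Just outside were the purinergic receptor P2ry14 and the growth factor binding protein Igfbp4 (both 0.698), Nnat (0.693) and the transcription factor Cebpa (0.691). Within 0.1 of the limit lay 42 members above it and 81 other probe sets below it.

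Among proteins of the cytoskeleton, Fhl2 was measured by 2 probe sets above the limit. The first Fhl2 probe set had signals of 647 and 980 with Runx2 siRNA and 248 and 371 with control siRNA, a log2 difference of 1.35 ± 0.27 (SE from limma over 4 arrays, as for all values below). The second, brighter one had 911 and 1681 against 428 and 594, a difference of 1.27 ± 0.32. In both probe sets the lower Runx2 siRNA array was number 1. That it lay above both controls was set by the criteria. The related Fhl1 and Fhl3 lay at 0.18 ± 0.23 and 0.08 ± 0.13, with overlapping groups.

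Ajuba, a LIM protein of cell junctions that holds back the Hippo kinases, had signals of 1622 and 1994 against 833 and 1210 (0.83 ± 0.21). Its dimmer probe set had 428 and 616 against 245 and 325, the same difference of 0.83 ± 0.23. The signals of the 2 Ajuba probe sets differed several-fold. Both were chosen for a difference of at least 0.7 in each pair, so their like size was partly set by the criteria. Myl9, a regulatory light chain of smooth muscle and non-muscle myosin, had 1703 and 1332 against 799 and 757 (0.94 ± 0.15), with Runx2 siRNA array 1 the higher and the controls close together. Other myosin light chains were at -0.04 ± 0.10 for Myl12b, 0.28 ± 0.20 for Myl12a and -1.07 ± 0.55 for Myl1.

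Microtubule genes were dimmer. Tppp, which promotes tubulin polymerization, had 105 and 223 against 32.5 and 84.8 (1.29 ± 0.49). Tubb4a, a beta tubulin, had 117 and 227 against 43.3 and 62.4 (1.40 ± 0.36), on a probe set whose type can also detect related transcripts. Brighter probe sets of Tubb4a lay at 0.28 and 0.49. In the member probe sets of both genes array 2 was the higher in either group. Krt33b, a hair keratin, had 131 and 156 against 62.1 and 31.8 (1.38 ± 0.31), with the controls unequal. Stac3, which serves excitation and contraction coupling in muscle, had 128 and 134 against 39.5 and 61 (1.17 ± 0.26). Klhl40, a muscle kelch protein, differed by 0.85 ± 0.18, the actin-binding Hcls1 by 0.78 ± 0.18 and Kash5, which links meiotic chromosomes to the cytoskeleton, by 0.82 ± 0.26.

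Some smooth muscle markers were higher too. Of 5 listed markers 3 were higher without overlap, Acta2 at 348 and 487 against 256 and 312, Des at 130 and 139 against 93.9 and 94.8, and Cnn1, below the signal limit, at 41.9 and 64.2 against 24.9 and 25.3. Of all probe sets 27.8% were higher without overlap, and 34.2% of those below the limit. The markers' summed signal was 678 and 1181 with Runx2 siRNA and 492 and 923 with control siRNA, which overlap as groups but are higher with Runx2 siRNA in both same-numbered pairs, and no marker was at 0. Their part in the values of Myl9 and Stac3 was not tested.

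**Figure D2:**
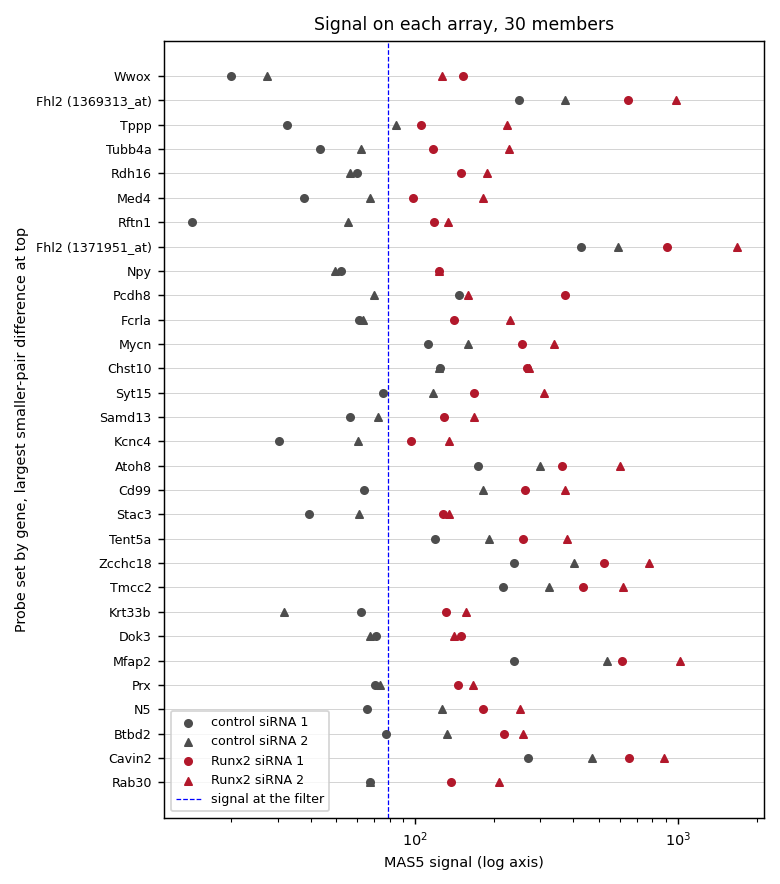
MAS5 signal on each of the 4 arrays (log axis) for the 30 members with the largest difference in their smaller pair, Runx2 siRNA in red and control siRNA in grey, circles for arrays numbered 1 and triangles for arrays numbered 2. Many controls lie left of the dashed line at a signal of 78.6, as for Wwox at 20 and 27.4, whereas both Fhl2 probe sets lie to its right on every array.

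Genes of adhesion, matrix and the cell surface included several of the brighter members. Cavin2, a coat protein of caveolae, had signals of 653 and 883 against 270 and 471 (1.06 ± 0.29). Mfap2, a protein of elastic microfibrils, had 614 and 1020 against 238 and 536 (1.11 ± 0.42), so that the lower Runx2 siRNA array was only slightly above the higher control. The desmosomal Pkp2 had 812 and 975 against 439 and 585 (0.79 ± 0.18). Pcdh8, a protocadherin, had 372 and 159 against 147 and 69.9 (1.14 ± 0.48), and here array 1 was the higher in both groups and the groups nearly touched.

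Rftn1, a lipid raft protein, had 118 and 133 against 14.1 and 55.3 (1.61 ± 0.45). Its control array 1 was far below the second, and the difference was 2.16 in pair 1 and 1.07 in pair 2. Cd99, an adhesion glycoprotein, had 262 and 371 against 63.7 and 182 (1.38 ± 0.46), again with a low first control. Prx, known from myelin, had 146 and 166 against 70.4 and 73.6 (0.96 ± 0.20), and Tmcc2 434 and 621 against 216 and 322 (0.93 ± 0.26). The rest were at 0.96 ± 0.23 for the annexin Anxa3, 0.86 ± 0.21 for the stem cell marker Prom1 and 0.72 ± 0.24 for the metalloproteinase Adamts9.

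Among transcription factors, Mycn, a basic helix-loop-helix factor of the Myc family, had 255 and 337 against 112 and 159 (1.05 ± 0.24). Its relative Mycl lay at 0.57 ± 0.18, while Myc, at 276 and 343 against 1120 and 924, lay at -1.67 ± 0.17. Myc thus lay below its controls without overlap, whereas the criteria required Mycn to lie above its own. Atoh8, another helix-loop-helix factor, had 362 and 600 against 174 and 298 (0.98 ± 0.34). Etv5, an ETS factor downstream of growth factor signalling, had 104 and 185 against 51.2 and 94.6 (0.85 ± 0.38), with barely separated groups, and its relatives Etv1, Etv3 and Etv6 lay between -0.06 and 0.02. Prdm1, a repressor known from plasma cells and germ cells, differed by 0.96 ± 0.22 and Klf2, a zinc finger factor, by 0.86 ± 0.30. Other Klf2 probe sets above the limit lay lower, at 0.17, 0.55 and 0.58, the latter pair with overlapping groups.

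Chromatin and other nuclear genes followed. Spin2b, a reader of histone methylation, was among the brightest members, with 2444 and 2442 against 1218 and 1420 (0.89 ± 0.11). Tox, a nuclear factor known from T cells, had 1495 and 1005 against 836 and 553 (0.84 ± 0.27). In Tox array 1 was the higher in both groups, while in Spin2b the Runx2 siRNA arrays were almost equal. Med4, a subunit of the Mediator complex, had 97.9 and 181 against 37.7 and 67.6 (1.16 ± 0.38). Its other and far brighter probe set, at 1732 and 1563 against 1117 and 1330, lay at 0.43. Samd13 had 129 and 168 against 56.7 and 72 (1.03 ± 0.24) and Zcchc18 522 and 778 against 238 and 404 (1.00 ± 0.31). The remaining values were 0.92 ± 0.19 for Baz2a, which silences ribosomal RNA genes, 0.91 ± 0.19 for Ccdc106 and 0.82 ± 0.35 for the elongation cofactor Mllt1.

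Secreted signals were dim, with mean signals of 86.6 to 191. Npy, the neuropeptide Y gene, had 123 and 123 against 52 and 49.4 (1.06 ± 0.22), the least spread within groups of the 6. Gal, which encodes the neuropeptide galanin, had 239 and 235 against 84.9 and 123 (1.10 ± 0.22). Pdgfa, a platelet-derived growth factor, had 237 and 282 against 99.3 and 146 (1.01 ± 0.24), whereas its relatives Pdgfc and Pdgfd lay at 0.07 ± 0.13 and -0.35 ± 0.36. The epidermal growth factor-like Nrg1 differed by 0.98 ± 0.20 and the chemokine Ccl4 by 0.86 ± 0.37. Tnfsf9, a ligand of the tumour necrosis factor family, had 64.8 and 199 against 32.2 and 50.6 (1.22 ± 0.51) and so rested largely on the second Runx2 siRNA array, with 0.75 in pair 1 and 1.69 in pair 2.

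Among receptors and channels Kcne2, an accessory subunit of potassium channels, was the brightest. Its signals were 2591 and 2231 against 1103 and 1337 (0.98 ± 0.14), and it was higher by 1.22 in pair 1 and 0.73 in pair 2. Kctd12, an auxiliary subunit of the GABA-B receptor, had 1210 and 1485 against 615 and 906 (0.83 ± 0.21). Cacna2d1, an auxiliary calcium channel subunit, had 439 and 425 against 225 and 250 (0.82 ± 0.14), and its relative Cachd1 differed by 0.74 ± 0.24. Replicates were close in Cacna2d1, while in Kctd12 the second array was the higher in both groups.

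Fcrla, an Fc receptor-like protein of B cells, had 140 and 230 against 61 and 63.6 (1.32 ± 0.28), and the potassium channel Kcnc4 96.3 and 134 against 30.4 and 60.4 (1.12 ± 0.34). Gprc5a, an orphan G protein-coupled receptor induced by retinoic acid, had 151 and 190 against 66.3 and 111 (0.86 ± 0.28). All controls of Fcrla and Kcnc4 were below 78.6. Other values were 1.09 ± 0.26 for the GABA-A receptor subunit Gabrq, 0.95 ± 0.28 for the calcium release channel Ryr2, 0.89 ± 0.31 for the somatostatin receptor Sstr2, 0.87 ± 0.23 for Nkain1 and 0.84 ± 0.16 for the polycystin Pkd1.

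Leukocyte markers were measured beside these genes. Of 9 markers named in the table, 4 were above the limit, 3 were higher and 2 lower without overlap, near the 27.8% and 19.6% of all probe sets. The summed signal was 1089 and 1562 against 802 and 1339, which overlap as groups but are higher with Runx2 siRNA in both same-numbered pairs. Csf1r, the receptor for the macrophage growth factor, was higher at 99.2 and 113 against 53.6 and 64.6, and Cd68 was lower at 79.6 and 78.6 against 82.5 and 114. Below the signal limit, the B cell marker Ms4a1 lay at 64.2 and 50.6 against 19.6 and 29.4, Cd79b at 5.32 and 5.53 against 1.95 and 1.76, and the T cell marker Cd3e lower at 35.5 and 5.54 against 44.3 and 38.1. No marker was at 0. Their part in the values of Fcrla, Ccl4, Dok3 and Hcls1 was not tested.

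Enzymes covered the widest range. Wwox, an oxidoreductase gene at a fragile site, had the largest difference, with 152 and 127 against 20 and 27.4 (1.97 ± 0.26), but another Wwox probe set, at 211 and 246 against 510 and 425, lay at -0.98. Rdh16, a retinol dehydrogenase, had 150 and 187 against 60 and 56.4 (1.31 ± 0.22), a clear gap between close replicates. The sulfotransferase Chst8, which acts on the sugars of glycoprotein hormones, had 1076 and 777 against 614 and 396 (0.87 ± 0.26), and a second probe set at 604 and 382 against 329 and 244 lay at 0.73. Chst10, which makes the HNK-1 sugar epitope, had 266 and 272 against 124 and 123 (1.03 ± 0.16). Other sulfotransferases of the family were lower with Runx2 siRNA, Chst2 at 1001 and 696 against 1415 and 1268 (-0.67 ± 0.19) and Chst12 at -0.77 ± 0.27.

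Further bright enzymes were Ddah2 and Bace2. Ddah2, which degrades inhibitors of nitric oxide synthase, had 1440 and 1720 against 774 and 988 (0.84 ± 0.16). Bace2, an aspartyl protease, had 1572 and 1509 against 880 and 907 (0.77 ± 0.10), but its other and brighter probe set, at 3568 and 2749 against 3029 and 2788, lay at 0.11 with overlapping groups. The metallothionein Mt3 differed by 0.98 ± 0.23, the lipases Pnpla1 and Pnpla8 by 0.91 ± 0.23 and 0.73 ± 0.22, the galactosyltransferase B4galt2 by 0.89 ± 0.24, Mpped1 by 0.90 ± 0.27 and the sugar phosphate enzyme Pgm2l1 by 0.76 ± 0.25.

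Signalling and trafficking genes were the largest group by number, with 14 members and mean signals of 80.5 to 268. Syt15, a synaptotagmin, had 167 and 310 against 75.4 and 117 (1.15 ± 0.35), and Tent5a, a poly(A) polymerase, 257 and 378 against 119 and 191 (0.97 ± 0.29). The adaptor Dok3 had 149 and 140 against 71.2 and 67.3 (0.92 ± 0.20), with the least spread of those given here. Btbd2 had 217 and 258 against 77.5 and 132 (1.11 ± 0.28), but its other and brighter probe set lay at 0.20. The small GTPase Rab30 had 137 and 208 against 67.4 and 67.2 (1.15 ± 0.26). Values for the others were 1.01 ± 0.28 for the pseudokinase Prag1, 0.96 ± 0.28 for the apoptosis inhibitor Birc7, 0.89 ± 0.22 for the scaffold Card14, 0.87 ± 0.27 for the co-chaperone Sgtb and 0.82 ± 0.23 for the pseudokinase Trib1. Lower still were Cnksr1, a scaffold of Ras signalling, and Cnrip1, which binds a cannabinoid receptor, at 0.80 ± 0.22 and 0.80 ± 0.33, Mfhas1 at 0.76 ± 0.18 and Tnrc6c, of the microRNA silencing machinery, at 0.71 ± 0.29.

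Genes of cell division and DNA replication were 5. Cdr2, an antigen that binds Myc, had 285 and 294 against 118 and 156 (1.01 ± 0.19). The cytokinesis kinesin Kif23 differed by 0.98 ± 0.24, the replication protein Gins3 by 0.83 ± 0.29, the mitotic cyclin Ccnb1 by 0.79 ± 0.33 and Cdca3 by 0.78 ± 0.32. In Ccnb1 the groups nearly touched, with 176 and 275 against 91.8 and 157.

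The brightest member was Hba-a3, a haemoglobin alpha chain gene, with 3617 and 3369 against 2107 and 1934 (0.79 ± 0.10). Of erythroid markers, Hbb had 3195 and 1920 against 2593 and 943, with overlapping groups, and Alas2 lay at -0.97, also with overlap. The summed signal of those 2 markers, of 5 listed, was 3435 and 2005 against 3040 and 1143, higher with Runx2 siRNA in both pairs, and their part in Hba-a3 was not tested. Prr15 had 2019 and 2043 against 1196 and 1189 (0.76 ± 0.09), with replicates almost equal in both groups. N5, annotated as a non-coding RNA, had 182 and 250 against 65.6 and 127 (1.09 ± 0.33). The others were Nemp2, of the nuclear envelope, at 0.84 ± 0.16, LOC102554996 at 0.82 ± 0.22, C10h5orf47 at 0.79 ± 0.28 and Ccdc13 at 0.78 ± 0.21.

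**Figure D3:**
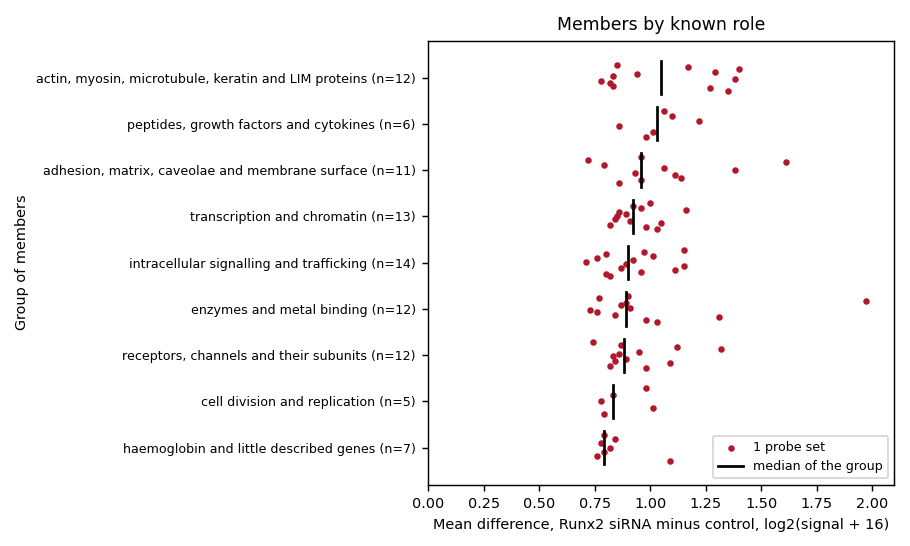
Mean difference between Runx2 siRNA and control siRNA in log2(signal + 16), 1 point per member probe set, by group of known role, with a black bar at the median of the group. Medians lie between 0.79 and 1.05, and Wwox at 1.97 is the farthest point.

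Other probe sets of the same genes read the same contrast and were given as values. For 52 of the 90 genes there was only 1 probe set with that symbol, and 36 had others that did not meet the criteria. Above the signal limit these were 39 probe sets for 26 genes, of which 32 were higher with Runx2 siRNA, with a median of 0.29. Of them 20 were higher and 4 lower without overlap, where 27.8% of all 14102 probe sets were higher and 19.6% lower without overlap. The 26 dimmer ones had a median of 0.22, with 9 higher without overlap, where 34.2% of such dim probe sets were.

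Genes with a second value of at least 0.67 above the limit were Kif23 (0.88), Kcne2 (0.84), Pgm2l1 (0.84), Nrg1 (0.81), Kctd12 (0.75), Mfhas1 (0.74), Chst8 (0.73) and Tent5a (0.67 on a probe set at 1979 and 3006 against 1235 and 1878). Above the limit, genes with a probe set on the other side of 0 were Wwox (-0.98), B4galt2 (-0.35), Adamts9 (-0.25), Cd99 (-0.18) and, for single probe sets, Mllt1 (-0.23) and Pnpla8 (-0.19 and -0.06). The Cd99 one was far brighter, at 2114 and 2254 against 2479 and 2481. For these genes the direction depended on the probe set.

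**Figure D4:**
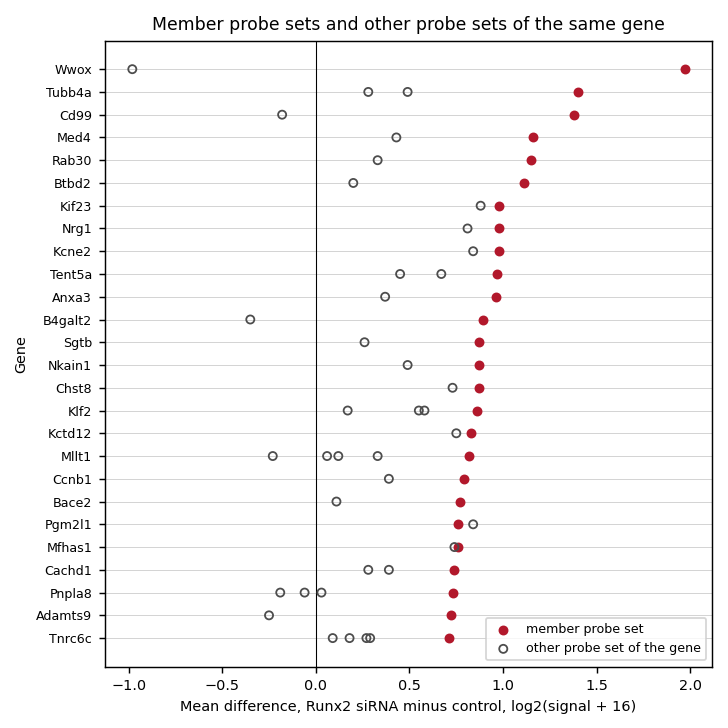
Mean difference between Runx2 siRNA and control siRNA in log2(signal + 16) for member probe sets (red) and other probe sets of the same gene above the signal limit (open circles), 1 line per gene. Open circles lie mostly between 0 and the red point, with Wwox at -0.98 as the farthest to the left.

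Target genes of SRF and YAP, which respond to actin and cell tension and include Myl9 and Ajuba, had a median difference of 0.29 over 21 measured genes, against 0.05 over 10017 genes. Of the 21, 8 were higher and 4 lower without overlap, where 28.8% and 19.6% of all genes were. Without the 2 members, which the rule chose for being higher, 6 of 19 (31.6%) were higher and 4 lower, with a median of 0.21. Among these, Vcl, the focal adhesion protein vinculin, had 2924 and 4121 against 1881 and 1705 (0.95 ± 0.18) and missed the criteria with 0.63 in pair 1. The angiomotin Amotl2 lay at 0.59 ± 0.13, Acta2, a smooth muscle actin, at 0.52 ± 0.21, Ccn2, a matricellular growth factor, at 0.50 ± 0.10, and Lats2 and Flna both at 0.29. The integrin Itga5 was at the other end, with 290 and 255 against 409 and 438 (-0.61 ± 0.15), and F3, Axl and Tead1 lay at -0.29, -0.19 and -0.10.

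Listed LIM domain genes and cofactors other than Fhl2 went both ways. Of 21 measured, 6 were higher (28.6%) and 4 lower (19%) without overlap, with a median of 0.15. The list left out Ajuba and its relatives. Of these relatives, Limd1 lay at 0.13 ± 0.14, Trip6 at 0.52 ± 0.28 and Wtip at 0.11 ± 0.14, the latter pair with overlapping groups. Lpp and Zyx, both of focal adhesions, lay at 0.58 ± 0.18 and 0.40 ± 0.14, and Tgfb1i1 and Pdlim7 at 0.57 ± 0.26 and 0.42 ± 0.12. Csrp1, a muscle LIM protein, had 318 and 455 against 834 and 1047 (-1.26 ± 0.21), as large a difference as that of Fhl2 in the other direction, and Pdlim4 lay at -0.52 ± 0.17.

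**Figure D5:**
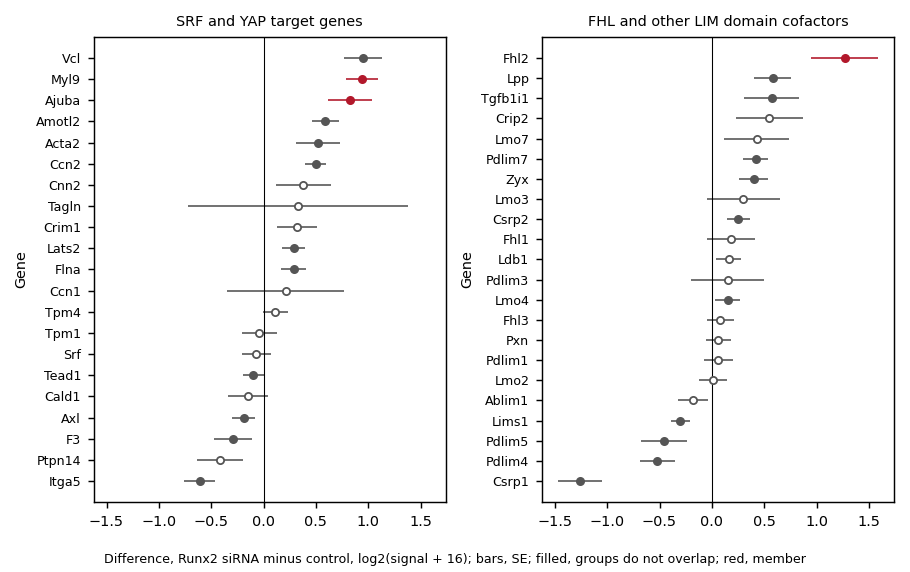
Difference between Runx2 siRNA and control siRNA in log2(signal + 16) with its SE (bars, limma over 4 arrays) for each measured gene of the SRF and YAP list (left) and the LIM domain list (right). Filled points have groups that do not overlap and members are red, with Vcl at 0.95 and Fhl2 at 1.27 highest and Itga5 at -0.61 and Csrp1 at -1.26 lowest.

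Of 23 listed intermediate filament genes, 11 were measured above the signal limit. Of the 10 other than Krt33b, 6 were higher and 0 lower without overlap, with a median of 0.28, where 28.8% and 19.6% of all genes were. With Krt33b the median was 0.39, and it was 0.26 after quantile and 0.23 after cyclic loess normalization. The 6 were Nefm (0.56 ± 0.27), the lamin Lmnb1 (0.47 ± 0.22), Des (0.45 ± 0.20), Krt17 (0.42 ± 0.20), Krt10 (0.39 ± 0.18) and Vim, at 11224 and 12848 against 10427 and 11136 (0.16 ± 0.13). Listed keratins below the limit that were also epithelial markers went both ways. Krt5 was higher (0.12) and Krt14 lower (-0.56) without overlap, and Krt18 (-0.25) and Krt19 (-0.61) had overlapping groups. Genes of retinoid metabolism, the list of Rdh16, had 3 higher and 4 lower without overlap among the 12 others. They ran from Aldh1a3, which makes retinoic acid, at 208 and 76.9 against 489 and 329 (-1.53 ± 0.45), to Rarb, a retinoic acid receptor, at 0.71 ± 0.26. Feedback regulators of growth factor signalling, the list of Etv5, had 5 higher and 3 lower without overlap among the 17 others. Spry4 had 246 and 238 against 160 and 147 (0.61 ± 0.17), while the phosphatases Dusp14 and Dusp1 lay at -1.25 ± 0.27 and -0.78 ± 0.26.

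For the remaining lists, too, counts are of genes whose groups did not overlap, where 28.8% of all genes were higher and 19.6% lower. Interferon response genes held 0 members, with 3 higher and 0 lower of 25. Their median was 0.48 in pair 1 and 0.02 in pair 2. Oasl, an antiviral gene, had 1569 and 1532 against 723 and 1325, and so rested on the first control array. Among p53 targets 6 were higher and 2 lower of 17 (median 0.18), with Cdkn1a, a cell cycle inhibitor, at 0.58 ± 0.17 and Gadd45a at -1.10 ± 0.21. TGF-beta family genes had 6 higher and 1 lower of 22 (median 0.14). The higher ones included Inhbb, which met the criteria itself and was set aside by name. With members left out, channels had 3 and 1 of 12 (0.09) and regulators of G protein signalling 3 and 2 of 13 (0.00).

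Within groups, the members tended to be higher on the arrays numbered 2. This held on both the Runx2 siRNA and the control arrays for 65 of 92 members, 70.7%, against 35% of the 14102 probe sets, and 12 members were lower on both. The median difference, number 2 minus number 1, was 0.29 in Runx2 siRNA arrays and 0.37 in control arrays, against 0.01 in both for all probe sets. Dim probe sets of any kind lay higher on number 2 more often, 42.5% under a signal of 200 and 33% at or above it. Members stood at 45 of 61 and 20 of 31 in these ranges. The demand that groups not overlap limits how far numbers can differ in a member, so this is a description. Members that ran the other way included Pcdh8, Tox, Chst8, Myl9 and Kcne2 on the Runx2 siRNA arrays.

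The choice of members depended on the scale. Under constants of 1 and 64 and after quantile and cyclic loess normalization, 31 members met the criteria every time. They included 12 of the 16 members with a mean signal over 500, among them both Fhl2 probe sets, Cavin2, Mfap2, Myl9, Kcne2, Spin2b, Prr15, Hba-a3, Tox, Chst8 and Ddah2. Of dimmer genes, Wwox, Rdh16, Fcrla, Tubb4a, Tppp, Rftn1, Mycn, Chst10, Cdr2, Pdgfa and Atoh8 were also among the 31. Neither Ajuba probe set was. With the arrays paired across numbers, only 12 of the 31 also met the criteria. These included the dimmer Fhl2 probe set, Myl9, Kcne2, Spin2b, Prr15 and Wwox. The brighter Fhl2 probe set, Cavin2, Mfap2, Hba-a3, Tox, Chst8, Ddah2, Tppp, Mycn, Pdgfa and Atoh8 did not. The balance of higher and lower probe sets moved with the scaling, from 107 and 193 to 63 and 222 after quantile and 54 and 240 after cyclic loess normalization, and to 38 and 137 with the constant of 64. The constant of 1 moved it the other way, to 148 and 212.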

How the data were processed

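Biotin-labelled RNA was hybridised to 4 single-channel arrays. The authors deposited intensity values, and the tool named is MAS5, per the submitters' processing notes, which give no version; the values lie on a linear scale. The mean signal after trimming 2% at each end is 500 on each array. The authors had thus scaled the arrays to a common trimmed mean, which hides a change in total RNA. This did not level the medians. The median signal was 129 for control siRNA 1, 137 for control siRNA 2, 141 for Runx2 siRNA 1 and 153 for Runx2 siRNA 2. It was thus higher with Runx2 siRNA, at a level near which many members lay. The MAS5 signal makes dim probe sets variable. From these values log2(signal + 16) was computed, and probe sets below the 40th percentile of mean signal were left out. Of 31042 probe sets 20826 had 1 symbol, 436 several and 9780 none, and 0 columns were not tied to a sample. Groups and numbers came from the sample titles. Differences are means of log2 values, Runx2 siRNA minus control siRNA, with the SE from limma 3.58.1 in R 4.3.3 (lmFit, eBayes with intensity trend, no term for the number, Benjamini-Hochberg adjustment over 18625 probe sets), which was tested on simulated data.

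Members, role groups, lists and bright genes were chosen with earlier results of these data known, and the CArG and GGAATG motifs after the promoters had been seen. By rule every member was named, with values per array for the 30 with the largest smaller-pair difference and for members of a list. Values per array of other members, mainly bright ones, were added after they had been seen, as were relatives of members. Genes in lists were represented by their brightest probe set. Gene identifiers of 89 of the 90 genes matched the GRCr8 gene table, and 0 symbols changed. Probe sets without a symbol or with several were not analysed here.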

Additional observations from a re-analysis of the deposited data

How the results depend on the processing

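The number of members depended on each choice tried. It was 92 as reported, 133 with a constant of 1, 32 with a constant of 64, 54 after quantile and 45 after cyclic loess normalization, 370 without the signal limit and 26 with a limit at the 60th percentile. Pairing the arrays across numbers gave 48, of which 33 were members. Leaving out 1 array drops a pair and so loosens the criteria. It gave 283 (without the second Runx2 siRNA array) to 396 (without the first), and 78 to 92 of the 92 members passed. Members meet the remaining demands on difference and overlap by their choice, so only the signal limit could remove them. The median difference of the members was 0.91, with 1.03 and 0.73 for constants of 1 and 64, 0.82 after quantile and 0.79 after cyclic loess normalization, 0.91 and 0.87 in the pairs numbered 1 and 2, and 0.77 to 1.05 when 1 array was left out. All 92 stayed higher under these scalings. With another constant or with 1 array left out the criteria themselves fix that direction, so only quantile and cyclic loess normalization could have changed it. With the replicate number as a block limma called 1512 of 18625 probe sets (8.12%), against 0 without it. Nothing in the labels ties equal numbers to one culture, although deviations of same-numbered arrays correlated at 0.548. In every other setting tried limma called 0, with 860 to 3608 at an unadjusted p under 0.05. With members included, the median of the G protein list turned from 0.03 to -0.07 and -0.08 after quantile and cyclic loess normalization, and that of the channel list from 0.10 to -0.05 after cyclic loess, and the cause was not tested. In windows of 200 bases before the start, TGTGGT was in 11.5% of member promoters and 11.5% of all.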
